A study of Mus musculus with 186 samples.

Results

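The 16 constructs described here each carried 1 replaced window at or after the annotated transcription start of the mouse Pwp2 CpG island promoter. They were taken by name from a library in which consecutive windows of the promoter were exchanged, 1 per construct, for random bases without CpGs. Every window from the one that holds the annotated start onward was included, which gave 16 of the 42 windows, among 45 constructs in the library and 572 constructs in all activity tables of the series. The other 26 windows lay before the start and served as the comparison. 15 of the 16 windows were 10 bases long, and the last one, at 425-441, held 17. The library was inserted into wild type mouse embryonic stem cells (ESCs, the TC-1 line) that carry a site for recombinase-mediated cassette exchange in the beta-globin locus, so that every construct sat at the same chromosomal place. No construct of this library was measured in another genotype. Motif mutants of a second Pwp2 library, described further below, were measured in these wild type cells. They were also measured in ESCs made from them by deleting Dnmt1, Dnmt3a and Dnmt3b. RNA and DNA were taken from the integrated cells in 3 replicates, and the sources used here do not say whether these were separate cultures. The p-values therefore rest on how far 3 possibly technical repeats scatter.

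Activity was the frequency of a construct's barcodes (BCs, short random tags in the transcript) in RNA over that in DNA. Relative activity was that value over the activity of the unmutated construct (WT) of the same replicate, so that 1 means no change and a log2 value of 0 means the same. The WT construct had activities of 0.999, 0.954 and 0.785 in replicates 1, 2 and 3. A control construct of background sequence gave 0.0579, 0.0524 and 0.0780 of WT, close to the lowest value the assay could return. All 16 windows lay above that level in every replicate.

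Pwp2 encodes a subunit of the small-subunit processome, which matures ribosomal RNA in the nucleolus. CpG island promoters such as this one usually lack a TATA box and are driven by ubiquitous factors, among them GABPA (an ETS family factor that binds around the bases CCGGAA), NRF1, SP1 and MYC (which binds the E-box CACGTG). Bases after the start are both DNA and RNA: they can be bound by transcription factors, form part of the 5′ UTR or the coding sequence, or mark the border between exon and intron, where the spliceosome recognizes a GT at the first intron bases. The RNA-over-DNA measurement counts transcripts, so the rate of transcription and the fate of the transcript cannot be told apart in it.

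The insert covered chr10:77647729-77648156 of mm9 on the minus strand. Its first base was taken as construct position 15, by the placement given in the section on processing. This placed the annotated start of Pwp2 (chr10:77647894) at construct position 277, the start codon at 338-340, the last base of exon 1 at 355 and intron 1 from there to the insert's end at 442. The 16 windows thus comprised 1 window over the start, 5 within the 5′ UTR, 1 with the start codon, 1 of coding sequence alone, 1 across the end of exon 1 and 7 within intron 1. The WT bases of 7 windows are shown because the results turn on them, all as read 5′ to 3′ along the transcript from the mm9 genome; the random bases that replaced them are not given in the tables used here. The deposited table names windows by their construct positions, as in pwp2_275-284 for the window over the start (the start window below). Capitals mark the annotated start base in the start window, the bases of the E-box in 315-324 and 325-334, the GT of the splice donor in 355-364, and CCGGAA in 295-304 and in 255-264, a window before the start.
255-264: cCCGGAAgtg
pwp2_275-284: gcGccggaga
285-294: ttgtttgtat
295-304: tCCGGAAgtg
315-324: ggtacccCAC
325-334: GTGtggttcc
355-364: gGTgagcggc
Their positions in mm9 were chr10:77647907-77647916 for 255-264, chr10:77647887-77647896 for the start window, chr10:77647877-77647886 for 285-294, chr10:77647867-77647876 for 295-304, chr10:77647847-77647856 for 315-324, chr10:77647837-77647846 for 325-334 and chr10:77647807-77647816 for 355-364.

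The deepest loss of activity among the 16 windows was at the end of exon 1. Of the 16 windows, 8 were lower than WT and 1 was higher by limma's moderated test (two-sided, adjusted p under 0.05 over all 42 windows), and 7 did not pass. Over the whole library 31.0% of windows were lower and 9.52% were higher. Before the start, 5 of 26 windows were lower and 3 were higher. The median log2 relative activity was -0.48 over the 16 windows, -0.02 over the 26 windows before the start and -0.17 over all 42. In 10 of the 16 windows every replicate was below WT, in 2 every replicate was above it, and in 4 the replicates fell on both sides. With replicate 2 left out, 3 of the 8 lower calls remained, those of 315-324, 355-364 and 365-374; without replicate 1 the count was 6 and without replicate 3 it was 9.

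Activity did not fall or recover smoothly along the transcript, nor did it before the start. The largest steps of the library lay before the start, from 245-254 to 255-264 (-2.80 on the log2 scale) and on to 265-274 (3.21). Of the 15 pairs of neighbouring windows among the 16, 8 differed from each other by limma on the within-replicate differences, in which the WT construct cancels, against 41.5% of all 41 neighbouring pairs of the library. The 8 steps lay on both sides of the E-box half-site at 315-324, on both sides of the exon end at 355-364, between the start window and 285-294, between 365-374 and 375-384, between 385-394 and 395-404, and between 415-424 and 425-441. Without replicate 1 or without replicate 3 the count was 5, against 9 and 10 of all 41 pairs.

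The start window replaced the 2 bases before the annotated start and the 8 bases from it onward, which the study names as an NRF1 motif. Its relative activity was 0.630, 0.582 and 0.550 in the 3 replicates, with a mean of 0.587 ± 0.0405 (SD, n = 3). All 3 replicates were below WT, and the log2 change was -0.77 (SE 0.16, limma adjusted p = 0.00141; 0.100 without replicate 2). The window just before it, 265-274, had relative activities of 1.33, 1.17 and 1.47, all above WT, with a limma adjusted p of 0.0578. The step from 265-274 down to the start window was -1.17 on the log2 scale (SE 0.21, limma adjusted p = 0.000352). It had 32, 15 and 9 BCs in the 3 replicates.

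Directly after the start, replacing a T-rich stretch left activity at or above WT. Window 285-294 had relative activities of 1.30, 1.35 and 1.41 (mean 1.35 ± 0.0574, SD, n = 3), the highest mean of the 16 and above WT in every replicate. Its log2 change of 0.44 (SE 0.16) had a limma adjusted p of 0.0448, which rose to 0.0860, 0.275 and 0.120 when replicates 1, 2 and 3 were left out and to 0.0782 without pairing the replicates. The step from the start window up to 285-294 was 1.21 on the log2 scale (SE 0.21, limma adjusted p = 0.000264).

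Windows 295-304 and 305-314, in the middle of the 5′ UTR, did not differ detectably from WT. Window 295-304 gave 1.08, 1.51 and 0.839 of WT, and window 305-314 gave 0.770, 0.919 and 0.770. The 95% interval of the log2 change ran from -0.24 to 0.54 for 295-304 and from -0.64 to 0.06 for 305-314, with limma adjusted p of 0.527 and 0.146. The replicates of 295-304 fell on both sides of WT, while those of 305-314 were all below it.

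Window 295-304 shared 9 of its 10 bases with window 255-264, which lies before the start, had the lowest activity of all 42 windows and holds a GABPA motif named by the study. Replacing 255-264 left 0.135, 0.133 and 0.163 of WT, a mean of 0.144 ± 0.0166 (SD, n = 3). The 2 windows hold the same CCGGAA on the same strand, at construct positions 256-261 and 296-301. Window 255-264 also holds the end of an SP1 motif that the study names at 248-257. The study reports lower activity when this SP1 motif or the GABPA motif was mutated alone. The 2 windows therefore differ in more than their position. Their log2 activities differed by -3.00, -3.50 and -2.37 in the 3 replicates, with 255-264 the lower each time (mean -2.96, SE 0.24, 95% interval -3.47 to -2.44, limma adjusted p = 4.3e-08 with this pair added to the 41 neighbouring pairs). This pair was chosen after the values were seen, with the lowest of all 42 windows as a member. The adjusted p does not cover that choice. Searched on both strands, CCGGAA matched the insert 3 times, at 256-261, at 296-301 and, overlapping the latter on the other strand, at 294-299. These matches touched 3 of the 42 windows (7.14%), and 14.9% of 32851 RefSeq mouse promoters (GRCm38.p6, 300 bases each) hold the letters.

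The E-box in the 5′ UTR lay across 2 windows, and both were lower than WT. The palindrome CACGTG occupied positions 322-327, so that window 315-324 removed its first 3 bases and window 325-334 its last 3. Window 315-324 had relative activities of 0.333, 0.392 and 0.264 (mean 0.330 ± 0.0641, SD, n = 3). Window 325-334 had 0.549, 0.474 and 0.702 (mean 0.575 ± 0.116). The log2 changes were -1.62 (SE 0.17, limma adjusted p = 2.01e-06) for 315-324 and -0.82 (SE 0.17, limma adjusted p = 0.00141) for 325-334. The call for 315-324 held in every alternative run, while that for 325-334 was lost without replicate 1 (adjusted p = 0.0945) and without replicate 2 (adjusted p = 0.150).

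The window with the first 3 bases of the E-box was thus the second lowest of the 16, and it was set apart from its neighbours. The step from 305-314 down to 315-324 was -1.33 on the log2 scale (SE 0.21, limma adjusted p = 0.000152). The step from 315-324 up to 325-334 was 0.80 (SE 0.24, limma adjusted p = 0.0130), and it missed the threshold without replicate 1 (adjusted p = 0.155) and without replicate 3 (adjusted p = 0.160). CACGTG matched the insert once, touching 2 of the 42 windows (4.76%), and 7.15% of the RefSeq promoters hold it. The CpG at the centre of the E-box was cut by the border between the windows; 325-334 touched no other CpG, and 315-324 touched 1 more.

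Around the start codon the changes were small. Window 335-344, which removed the ATG together with 3 bases before and 4 after it, gave 0.786, 0.732 and 0.881 of WT (mean 80.0% ± 7.50 of WT, SD, n = 3). All 3 replicates were below WT, but the log2 change of -0.33 (95% interval -0.67 to 0.02) did not pass the test (limma adjusted p = 0.118). The barcode readout counts RNA and not protein, so it does not score whether translation starts. Window 345-354, the only window that held coding sequence alone, gave 0.622, 0.764 and 0.784 (mean 0.723 ± 0.0879). It passed with a log2 change of -0.47 (SE 0.16, limma adjusted p = 0.0374), a call that was lost without replicate 1 (adjusted p = 0.106), without replicate 2 (adjusted p = 0.265) and without pairing the replicates (adjusted p = 0.0550). The log2 difference between 335-344 and 345-354 was -0.15, with a 95% interval from -0.60 to 0.30.

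Replacing the end of exon 1 with the splice donor gave the lowest activity of the 16 windows. Window 355-364 took out the last base of exon 1 and the first 9 bases of intron 1, including the donor's GT. Its relative activity was 0.190, 0.204 and 0.240, a mean of 0.211 ± 0.0258 (SD, n = 3). Every replicate lay below the lowest replicate of each of the other 15 windows, and the background construct stayed lower still. The log2 change was -2.25 (SE 0.16, 95% interval -2.60 to -1.90, limma adjusted p = 2.32e-08), and the call held in every alternative run. Among the 42 windows, 255-264 alone had a lower mean. The study reports no predicted motif in the window with the second strongest reduction and proposes other binding events there. It also reports lower activity when regions downstream of the endogenous promoter's dominant initiation site were mutated, and proposes that they contribute to initiation. That site was not placed on the construct here. Window 355-364 rested on 402, 232 and 210 BCs, more than 13 of the other 15. By the annotation the insert ended 87 bases into intron 1, so it lacked the splice site at that intron's far end. Splicing of the reporter transcript was not measured.

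Both flanks of the exon end were higher. The step from 345-354 down to 355-364 was -1.71, -1.90 and -1.71 in the 3 replicates (mean -1.78, SE 0.21, limma adjusted p = 5.7e-06). The step back up to 365-374 was 1.15, 1.09 and 0.84 (mean 1.03, SE 0.21, limma adjusted p = 0.000998; 0.0524 without replicate 1). Activity on the intron side, at 365-374, was thus intermediate between that of the exon end and WT. The donor letters GTGAG matched at 356-360 and once more before the start. They touched 3 of the 42 windows (7.14%), and 50.8% of the RefSeq promoters hold them on either strand. GTAAG matched once, on the other strand at 348-352 (1 of 42 windows, 2.38%; 28.8% of promoters). The remaining letters searched, GGGCGG of SP1, ATGGCG of YY1 and the NRF1 core GCGCNNGCGC, did not touch any of the 16 windows, and 35.7%, 8.93% and 6.23% of promoters hold them; GGGCGG touched 3 windows (7.14%) before the start and the other letters touched none of the 42.

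Within intron 1, windows lower than WT lay among windows that did not pass the test. Of the 7 windows, 3 were lower than WT, none was higher and 4 did not pass. Over all 42 windows, 31.0% were lower and 9.52% were higher. Without replicate 2, the call of 365-374 alone remained among the 7. Window 365-374, right behind the donor, gave 0.420, 0.435 and 0.430 of WT (mean 0.428 ± 0.00769, SD, n = 3), the narrowest spread of the 16. Its log2 change was -1.22 (SE 0.16, limma adjusted p = 1.95e-05), and the call held in every alternative run. Window 375-384 gave 0.554, 0.600 and 1.08, so that replicate 3 alone was above WT. Its log2 change of -0.49 had a 95% interval from -0.91 to -0.08 and a limma adjusted p of 0.0548, which was 0.00137 without replicate 3 and 0.0455 without pairing the replicates. The step between these 2 windows was 0.73 (SE 0.23, limma adjusted p = 0.0182), and the adjusted p was 0.106, 0.0510 and 0.110 without replicates 1, 2 and 3.

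Further into the intron, window 385-394 was again lower than WT. It gave 0.451, 0.502 and 0.569 of WT (mean 0.507 ± 0.0592, SD, n = 3) on 612, 362 and 298 BCs, the highest numbers of the library. The log2 change was -0.99 (SE 0.16, limma adjusted p = 0.000229; 0.0533 without replicate 2). The step from 375-384 down to 385-394 was -0.49 (SE 0.22) and did not pass (limma adjusted p = 0.0902). The next window, 395-404, was above WT in all 3 replicates, at 1.03, 1.29 and 1.28, without passing the test (limma adjusted p = 0.193). The step between 385-394 and 395-404 was 1.24 (SE 0.21, limma adjusted p = 0.000217).

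Windows 405-414 and 415-424 did not differ detectably from WT. Window 405-414 gave 0.921, 0.748 and 1.74, the widest spread of the 16, and window 415-424 gave 0.937, 1.04 and 1.13. The 95% interval of the log2 change was -0.36 to 0.54 for 405-414 and -0.30 to 0.39 for 415-424. The second of these rested on 390, 234 and 218 BCs, far more than the first.

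The last window, 425-441, was lower than WT although it lay farthest from the start. It gave 0.587, 0.517 and 0.459 (mean 0.521 ± 0.0642, SD, n = 3), with a log2 change of -0.95 (SE 0.16, limma adjusted p = 0.000301; 0.0541 without replicate 2). The step from 415-424 was -0.99 (SE 0.22, limma adjusted p = 0.00153; 0.0580 without replicate 3). It replaced 17 bases where the others replaced 10, so its value and theirs differ in the length removed as well as in position.

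Averaged by transcript part, the exon end was lowest in every replicate. The start, a single window, was below the start codon window and the means of 5′ UTR and intron in every replicate. Within 5′ UTR and intron, windows 315-324 (-1.62), 325-334 (-0.82), 365-374 (-1.22), 385-394 (-0.99) and 425-441 (-0.95) had lower means than the start window. The other windows of these parts had higher means. The mean log2 change over the 5 windows of the 5′ UTR was -0.47, -0.31 and -0.51 in the 3 replicates (mean -0.43 ± 0.11, SD, n = 3). Over the 7 intron windows it was -0.60, -0.55 and -0.24 (mean -0.47 ± 0.19). The single windows over the start, the start codon and coding sequence had -0.77 ± 0.10, -0.33 ± 0.13 and -0.47 ± 0.18, and the window across the exon end had -2.25 ± 0.17. The 26 windows before the start averaged -0.26, -0.13 and 0.09. The means of 5′ UTR and intron were below these in every replicate. No test was made over parts, because windows are not replicates and an exact sign test over 3 replicates cannot go below p = 0.25. All windows of a replicate shared the same WT value, and the shift of the mean before the start from replicate 1 to replicate 3 (-0.26 to 0.09) moved with the WT activity of those replicates; its part in the single calls was tested only by the alternatives given in the closing section.

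The windows also differed in how many CpGs they removed, which is given here as a description without a test. The number of CpGs with at least 1 base in the window, counted in the mm9 sequence, was 0 for 2 windows, 1 for 7 and 2 for 7. Of the 7 windows with 2 CpGs, 6 were lower than WT, with log2 changes from -2.25 to 0.09 and a median of -0.95. Of the 7 windows with 1 CpG, 2 were lower, with changes from -0.99 to 0.26 and a median of -0.29. The 2 windows with no CpG, 285-294 and 335-344, had 0.44 and -0.33. The groups overlapped: window 405-414, with 2 CpGs, had 0.09, while windows 325-334 and 385-394, with 1, had -0.82 and -0.99. Over all 42 windows, with any number of CpGs, 31.0% were lower than WT. Before the start, the windows with 2 CpGs were 155-164, 165-174, 215-224, 245-254 and 265-274. Their log2 changes were -0.29, -0.41, -0.55, -0.007 and 0.40, and 215-224 alone was lower by the test. As a description over the 16 windows, Spearman's rho between the log2 change and the number of CpGs was -0.57 and with the G+C percent -0.52. Over the 26 windows before the start the same values were -0.35 and -0.50. The points of both share the library and the WT reference, and windows rich in CpGs are also rich in G+C, so these features cannot be told apart here.

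A second Pwp2 library held 3 motif mutants in the same stretch, measured in the same wild type ESCs and in ESCs made from them by deleting Dnmt1, Dnmt3a and Dnmt3b, the DNA methyltransferases (triple knockout, TKO). The mutant of the NRF1 motif at the start, whose bases are those of the start window, had 0.875, 0.297 and 0.494 of that library's own WT in wild type cells, against 0.630, 0.582 and 0.550 for the window. The MYC motif mutant had 0.738, 0.297 and 0.516, beside 0.333, 0.392 and 0.264 for window 315-324 and 0.549, 0.474 and 0.702 for 325-334. Its label gives no position, and the insert holds a single CACGTG. The mutant of the NRF1 motif at 370-379, which lies across 2 intron windows, had 0.457, 0.510 and 0.536, beside 0.420, 0.435 and 0.430 for 365-374 and 0.554, 0.600 and 1.08 for 375-384. All 3 motif mutants were thus below WT in every wild type replicate. So were the windows that share their bases, except 375-384 in replicate 3, if the MYC motif is taken to be this CACGTG. For the MYC and NRF1 motifs, the study reports a weak decrease on mutation, whether or not the motif was bound. The 3 mutants rested on 8 to 40 BCs per wild type replicate. For low coverage, the study set its minimum for this library to 1 BC. The libraries were scaled separately, and no difference between them was tested.

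In TKO cells the same mutants scattered more. The NRF1 mutant at the start had 2.52, 0.914 and 0.626 of WT, the mutant at 370-379 had 1.37, 0.796 and 0.567, and the MYC mutant had 1.41, 0.420 and 0.652. All 3 were above WT in replicate 1 and below it in replicates 2 and 3. The WT construct itself had an activity of 0.994 in TKO replicate 1 against 2.25 and 2.06 in replicates 2 and 3. The 3 mutants rested on 7 to 18 BCs per TKO replicate, and the change between wild type and TKO cells was not tested here.

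The number of BCs differed widely between the windows. The library held 1634 to 3158 BCs per replicate, of which the 16 windows took 1074 to 2054. Among the 16, a window had between 9 and 612 BCs in a replicate, and 3 windows (355-364, 385-394 and 415-424) had more than 100 in every replicate. Of these, 2 were lower than WT and the other did not differ detectably. Before the start a window had between 5 and 122. As a description over the 16 windows, Spearman's rho of the mean number of BCs was -0.17 with the log2 change and -0.13 with its SD over replicates. The number of reads behind each BC is unknown from the tables, so counting error could not be computed and the replicate spread stands in for it.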

How the data were processed

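Barcode RNA and DNA libraries of 3 replicates (6 samples) gave the window table. According to the study's methods, the authors scaled RNA and DNA reads of a replicate to the smaller total, kept barcodes with enough DNA reads, added 0.05 to each RNA-over-DNA ratio and averaged log2 over the barcodes of a construct. The deposited activities are therefore ratios with a floor of 0.05, and BC numbers stand beside them. Reads were assigned to constructs by string distance, with no version stated in the sources at hand. The authors' relative activity columns were not used.

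Each ratio was divided by WT of the same replicate and taken as log2. limma 3.58.1 in R 4.3.3 tested whether the mean over 3 replicates differed from 0 (moderated test, two-sided, Benjamini-Hochberg over 42 windows, or over 41 neighbouring pairs, threshold 0.05). All 42 windows had at least 3 BCs in at least 2 replicates. Replicates are paired because each sample holds all constructs. All 16 windows were named. The members, gene parts and motif list were chosen with earlier results of these data known. The fits were tested on simulated data first.

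Parts came from GENCODE M1 on mm9. Construct positions were tied to the insert by the motif mutants of the second library. An offset of 14 bases matched the loss of CpGs in 6 of 7 motifs, as did 13 and 15. It gave the most identical bases between motifs of the same factor, summed over SP1, GABPA and NRF1 (24, against 20 and 19). For GABPA alone it gave 2, against 4 and 3. Positions given to the base rest on this offset. Another Pwp2 library names no mutated positions and was not used.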

Additional observations from a re-analysis of the deposited data

How the results depend on the processing

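The 8 lower windows at and after the start numbered 7 to 9 in every alternative other than leaving out a replicate, where they ranged from 3 to 9. With no replicate block, that is with replicates not paired, 8 were lower (7 of them shared with the paired fit) and 0 were higher: 285-294 and 345-354 no longer passed, 375-384 did, and no other call of the 16 changed; among all windows 2 were higher in place of 4. Taking the median of the 42 windows as reference gave 2 higher windows here and 12 among all windows, and raised every part by the same amount, to a mean log2 change of -0.61 for the start window, -0.27 for the 5′ UTR, -0.17 for the start codon, -0.32 for coding, -2.09 for the exon end and -0.31 for the intron. Barcode weights left 1 higher window among all. Adding 0.05 again moved the exon end to -1.99. Without 1 replicate, all lower windows ranged from 4 to 15, higher windows from 0 to 1 among all and were 0 here, and differing neighbours from 5 to 7. Of the values near 0 that changed sign without 1 replicate, the log2 change ranged from -0.070 to 0.35 for 295-304, from -0.27 to 0.34 for 405-414 and from -0.021 to 0.12 for 415-424; the difference from 395-404 to 405-414 ranged from -0.47 to 0.14 and that from 405-414 to 415-424 from -0.30 to 0.25, and the latter was 0.012 with barcode weights. Requiring 10 BCs in every replicate removed the start window, so the start had no value there. The table holds 1 WT construct, so another WT reference could not be tried. The causes were not tested. With 2 replicates left, limma had 1 residual degree of freedom per window, and reads per BC are unknown, which limits the precision of windows with few BCs.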
